A study of Mus musculus with 24 samples.

Results

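The zinc-dependent histone deacetylases were analysed as a family of 10 genes (Hdac1 to Hdac9 and Hdac11), chosen by name, out of 53379 genes in the count table. Hdac10 was not among them, so ranks, counts and shares of the family are those of these 10 genes. All 10 passed the filter on low counts, as did 37598 genes in all. The libraries hold nuclear mRNA of adult male C57/BL6N mice, bought at 8 weeks of age and kept for a further 4 weeks, whose deep cortex beside the right hippocampus was injected with kainic acid (KA), which elicits a status epilepticus, or with saline as sham (SH). Mice given KA that showed no convulsive seizures had been left out by the authors. Right hippocampi taken at 24 hours were pooled from 4 mice in replicate 1 and from 2 mice in replicates 2 and 3, and nuclei of each pool were sorted with an antibody against NeuN, a nuclear protein of most neurons. NeuN+ nuclei are called neurons and NeuN- nuclei glia, although the NeuN- gate also admits other cells without NeuN. There were therefore 3 libraries each of SH neurons, KA neurons, SH glia and KA glia.

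Histone deacetylases remove acetyl groups from lysines of histones and other proteins, and deacetylated chromatin is usually less transcribed. Class I enzymes (Hdac1, Hdac2, Hdac3 and Hdac8) are mainly nuclear, and all but Hdac8 act as the catalytic core of corepressor complexes. Hdac1 and Hdac2 sit in NuRD, Sin3 and CoREST, and Hdac3 sits in NCoR/SMRT. Class IIa enzymes (Hdac4, Hdac5, Hdac7 and Hdac9) have little catalytic activity of their own, repress MEF2 transcription factors, and leave the nucleus when kinases phosphorylate them and 14-3-3 proteins bind. Hdac6 of class IIb is mostly cytoplasmic and deacetylates tubulin, and Hdac11 is the sole member of class IV and removes long fatty acyl groups from lysines.

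Promoter windows of RefSeq (GRCm38.p6, from 250 bases before to 50 bases after the annotated start) were available for 8 of the 10 genes in 12 windows. There was no entry for Hdac1 and Hdac3. Shown are windows of Hdac11, Hdac2, Hdac6 and Hdac9, whose mRNA, like that of Hdac3, differed in the comparisons given further on. Each CpG is in capitals, because the study also measured CpG methylation. It did so by bisulfite sequencing of fragments cut at CCGG, data that were not analysed here. Hdac11 lies on chr6:91156565-91156864 (plus strand), Hdac2 on chr10:36974294-36974593 (plus strand), Hdac6 on chrX:7947840-7948139 (minus strand) and the shown start of Hdac9 on chr12:34528840-34529139 (minus strand).
Hdac11: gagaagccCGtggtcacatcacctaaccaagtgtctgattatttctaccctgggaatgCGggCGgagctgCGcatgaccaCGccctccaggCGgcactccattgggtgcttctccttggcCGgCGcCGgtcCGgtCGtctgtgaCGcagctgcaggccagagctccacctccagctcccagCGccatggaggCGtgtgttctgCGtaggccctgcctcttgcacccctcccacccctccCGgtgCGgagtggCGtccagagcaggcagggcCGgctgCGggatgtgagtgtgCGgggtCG
Hdac2: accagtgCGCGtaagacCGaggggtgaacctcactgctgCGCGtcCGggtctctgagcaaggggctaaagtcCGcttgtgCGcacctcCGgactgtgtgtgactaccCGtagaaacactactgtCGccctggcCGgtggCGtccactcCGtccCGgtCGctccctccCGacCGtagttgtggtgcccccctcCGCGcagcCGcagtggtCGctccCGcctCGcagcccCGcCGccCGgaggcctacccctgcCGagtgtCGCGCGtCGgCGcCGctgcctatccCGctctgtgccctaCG
Hdac6: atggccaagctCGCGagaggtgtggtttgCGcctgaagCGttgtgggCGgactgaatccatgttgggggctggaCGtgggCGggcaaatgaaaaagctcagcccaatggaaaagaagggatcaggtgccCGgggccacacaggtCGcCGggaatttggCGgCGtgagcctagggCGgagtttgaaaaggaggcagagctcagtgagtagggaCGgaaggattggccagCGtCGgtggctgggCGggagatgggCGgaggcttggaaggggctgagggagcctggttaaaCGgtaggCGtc
Hdac9: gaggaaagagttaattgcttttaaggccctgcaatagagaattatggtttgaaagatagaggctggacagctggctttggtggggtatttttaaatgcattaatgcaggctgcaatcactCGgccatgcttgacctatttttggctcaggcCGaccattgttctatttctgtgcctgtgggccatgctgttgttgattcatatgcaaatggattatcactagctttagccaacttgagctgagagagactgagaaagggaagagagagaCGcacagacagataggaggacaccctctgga
The Hdac11 window held 22 CpG and 5 CCGG sites at 66.7% GC. The Hdac2 window held 36 CpG and 5 CCGG sites, and the Hdac6 window 20 CpG and 2 CCGG sites. The Hdac9 window held 3 CpG and no CCGG site at 45.3% GC, and a second Hdac9 start had no CpG. The median over all 32851 windows of this length was 7 CpG and 52.7% GC, and 52.8% of them held CCGG. Of the Hdac11, Hdac2 and Hdac6 windows, in that order, 76.9%, 93.8% and 73.5% of all windows held fewer CpG, against 23.3% for the Hdac9 window. On either strand, the Sp1-type GGGCGG was found in 6 of the 12 windows (35.7% of all windows), the AP-1-type TGANTCA in 2, 1 each of Hdac7 and Hdac9 (7.81%), and the CRE-type TGACGTCA in none (1.79%).

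Libraries held 7769400 to 40364768 counts (median 21380824.5), so that each family member had between 118 and 14407 reads in a library. SH glia replicate 1 and KA glia replicate 2 had been amplified from about 0.05 ng RNA with 15 PCR cycles, the others from about 1 ng with 10. Replicate 3 was the highest library of its group in all 4 groups for 7 of the 10 members, compared with 15.9% of all genes tested. All 15 neuronal markers were higher in neurons than in glia (FDR below 0.05), and all 10 astrocytic, all 8 oligodendrocytic, all 5 oligodendrocyte precursor (OPC) and 9 of 10 microglial markers were lower. Values are CPM (reads of a gene scaled to the size of its library after TMM normalization), mean ± SD of n = 3 libraries, and logFC is on the log2 scale with its standard error (SE). Since the labels number the pools and the methods describe them as separate groups of mice, the spread is that between pools. Pairs of KA and SH libraries, and the replicate block of KA against SH, match pools by number. The labels do not state that such pools belong together.

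**Figure D1:**
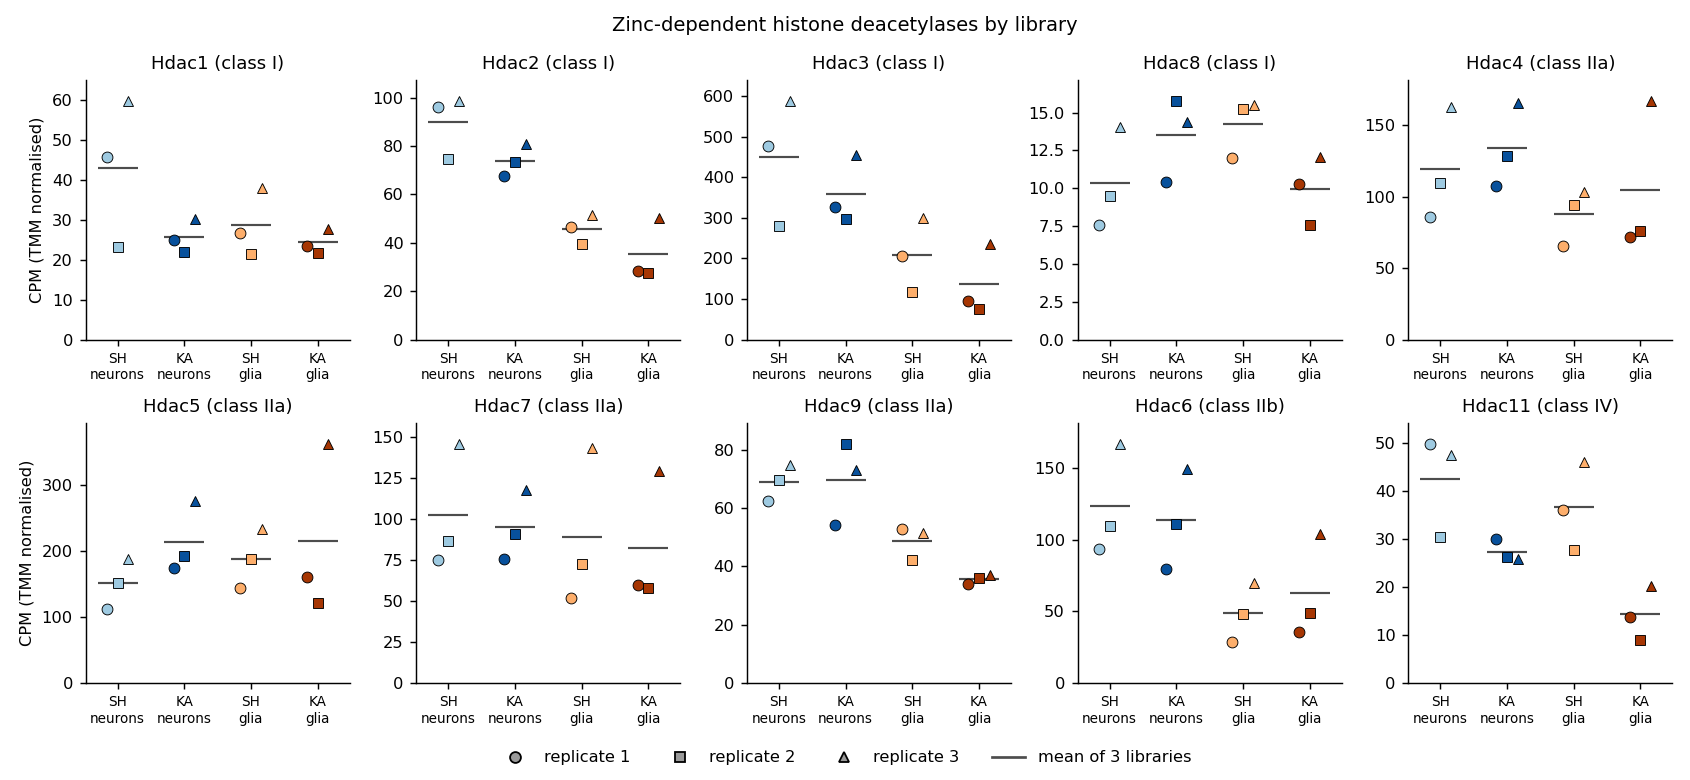
CPM (y axis, linear and from 0) of each of the 10 deacetylases in each of the 12 libraries, by group (x axis); symbols mark the replicate and the line is the mean of 3 libraries. The 3 KA glia libraries of Hdac11 sit between 8.99 and 20.2 CPM, below all 3 SH glia libraries, while for most members the replicate 3 triangle is the top point of its group.

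Compared per length of exon, Hdac3 was the most abundant family member in all 4 groups. The length counts all exon bases. Reads could be left out where these are shared with other genes, chiefly in Hdac4 and Hdac11, or recur in the genome, chiefly in Hdac1. How far this lowered the levels, ranks and class shares was not tested. The values of Hdac3 by group follow. Hdac3 had 111 ± 38.4 CPM per kb in SH neurons, 88.8 ± 20.9 in KA neurons, 51.2 ± 22.5 in SH glia and 33.5 ± 21.5 in KA glia. Its libraries lay above those of every other member except in KA glia, where they overlapped with those of Hdac5 and Hdac7. Hdac8 was the least abundant member throughout, with group means from 2.06 to 2.94 CPM per kb.
Between these ends, the order in SH neurons was Hdac6, Hdac2, Hdac5, Hdac7, Hdac1, Hdac11, Hdac4 and Hdac9, from 21.2 CPM per kb for Hdac6 to 4.72 for Hdac9. Neighbours in this order overlapped in their libraries from Hdac6 down to Hdac4, whereas Hdac4 lay above Hdac9 and Hdac9 above Hdac8 in all libraries. In SH glia the order was Hdac5, Hdac7, Hdac2, Hdac11, Hdac6, Hdac1, Hdac4 and Hdac9, and only Hdac3 above Hdac5 and Hdac4 above Hdac9 were separate. In KA neurons, Hdac5 followed Hdac3, and Hdac11 was eighth. In KA glia, Hdac11 was also eighth with 3.71 ± 1.46 CPM per kb, and no neighbours in the order were separate.

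The classes made up different shares of the family's summed CPM per kb. Class I accounted for 64.9% ± 6.56 in SH neurons, 59.7% ± 2.76 in KA neurons, 53.8% ± 7.67 in SH glia and 45.8% ± 1.14 in KA glia. Class IIa accounted for 20.5% ± 5.04, 26.6% ± 1.73, 32.8% ± 6.29 and 41.1% ± 0.598 in the same order. The class IIa share of the KA glia libraries (40.4% to 41.6%) lay above that of the SH glia libraries (27.0% to 39.5%), and the ranges in neurons (24.7% to 28.1% in KA, 15.5% to 25.6% in SH) overlapped. Hdac11, the whole of class IV, made up 7.17% ± 0.729 of the family in SH glia and 3.49% ± 0.714 in KA glia, without overlap of libraries. A share depends on all members, so a higher class IIa share need not mean more class IIa mRNA. Mean Hdac3 was 51.2 CPM per kb in SH glia and 33.5 in KA glia. From SH to KA glia, the means of Hdac4 and Hdac5 went from 5.55 to 6.64 and from 21.4 to 24.4. Those of Hdac7 and Hdac9 went from 13.2 to 12.1 and from 3.34 to 2.43. None of these genes passed the FDR threshold in glia in the main fit. The shares are descriptions of the members and were not tested, and no other gene sets were compared.

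**Figure D2:**
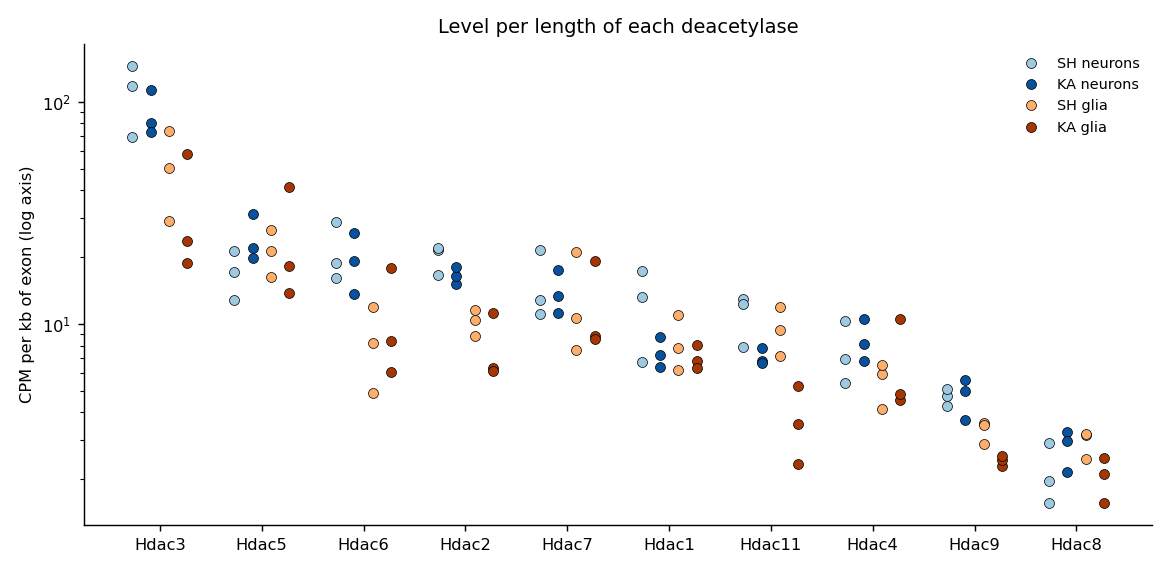
Level of each deacetylase in CPM per kb of exon (y axis, log scale), with the genes on the x axis in the order of their mean over all libraries; each point is 1 library and the colour gives the group. Hdac3 is the highest and Hdac8 among the lowest in every group, and the neuron points of Hdac2, Hdac6 and Hdac3 sit mostly above their glia points.

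Neurons were compared with glia to see in which cell fraction each enzyme's mRNA was more abundant. Of the 10 members, 4 were higher in neurons and none lower (edgeR quasi-likelihood test, FDR below 0.05), where 18.5% of all genes tested were called and 11.6% were higher. The 4 were Hdac2, Hdac3, Hdac6 and Hdac9, and each was higher in the neurons than in the glia of the same pool in 6 of 6 pools.
Hdac2, which pairs with Hdac1 in nuclear corepressors, had 96.1, 74.7 and 98.5 CPM in SH neurons and 67.5, 73.4 and 80.8 in KA neurons. It had 46.5, 39.7 and 51.5 CPM in SH glia and 28.2, 27.4 and 50.1 in KA glia, so that every neuron library lay above every glia library. The logFC was 1.02 (SE 0.23, FDR 0.00337).
Hdac3, the catalytic subunit of NCoR/SMRT, had 478, 281 and 588 CPM in SH neurons and 327, 297 and 456 in KA neurons. Its glia libraries had 205, 118 and 299.7 CPM in SH and 95.3, 76.5 and 236 in KA, and the highest of them reached into the range of the neurons. The logFC was 1.26 (SE 0.35, FDR 0.016).
Hdac6, the tubulin deacetylase, had 93.7, 109 and 167 CPM in SH neurons and 79.7, 111 and 149 in KA neurons. In glia it had 28.5, 47.9 and 69.5 CPM in SH and 35.4, 48.7 and 104 in KA, where only KA glia replicate 3 reached the neurons. The logFC was 1.10 (SE 0.32, FDR 0.0202).
Hdac9, a class IIa enzyme, had 62.6, 69.9 and 75.0 CPM in SH neurons and 54.2, 82.0 and 73.4 in KA neurons. In glia it had 52.8, 42.3 and 51.7 CPM in SH and 33.8, 35.9 and 37.1 in KA, below every neuron library. The logFC was 0.74 (SE 0.20, FDR 0.016).
The other members had logFC values from -0.16 for Hdac5 to 0.58 for Hdac11 (SE 0.24, FDR 0.129). Hdac11 was also higher in neurons in 6 of 6 pools, by 1.03 to 1.38 times in SH and by 1.28 to 2.92 times in KA. So was Hdac1 (logFC 0.33, FDR 0.493), by 1.085 to 1.709 times in SH and by 1.01 to 1.086 times in KA. The share of all genes higher in 6 of 6 pools was not determined. Neither was the share with every neuron library above every glia library, as for Hdac2 and Hdac9.

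The median logFC of all genes was -0.15 in this comparison and -0.30 with RLE scaling. Relative to that median, Hdac2 stood at 1.17 and with RLE scaling at 1.15, Hdac3 at 1.41 and 1.38, Hdac6 at 1.25 and 1.21, and Hdac9 at 0.89 and 0.87. With RLE scaling 1 member was called, namely Hdac2, where 3250 of 37598 genes were called higher, compared with 4367 in the main fit. With the pools as a block, since neurons and glia of a pool come from the same mice, 6 members were called, Hdac4 (logFC 0.43, FDR 0.0444) and Hdac11 (0.61, FDR 0.0113) in addition, where 19.7% of all genes were called higher. Leaving out SH glia replicate 1, KA glia replicate 1 or KA glia replicate 2 left 0 members called, as did leaving out both low-input libraries. In that order, 2351 of 40720, 2318 of 39986, 2341 of 39564 and 2077 of 39577 genes were called higher in those fits. Without both low-input libraries, logFC values were 0.73 for Hdac2 (FDR 0.222), 0.85 for Hdac3 (FDR 0.359), 0.63 for Hdac6 (FDR 0.488) and 0.57 for Hdac9 (FDR 0.340). The summed neuronal markers were at 686 to 3136 CPM in glia and 8072 to 14194 CPM in neurons. Their part in the levels of the family in glia was not tested.

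**Figure D3:**
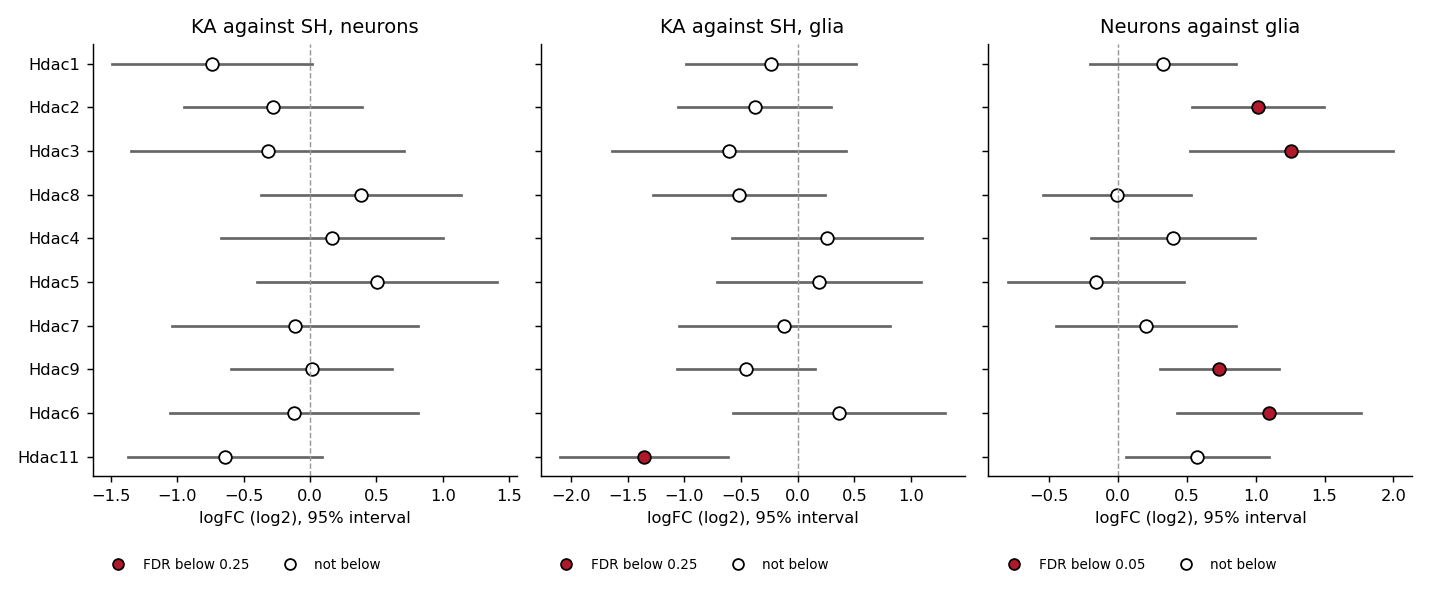
logFC on the log2 scale (x axis) with its 95% interval for each member (y axis) for KA against SH in neurons, KA against SH in glia, and neurons against glia, all from 1 edgeR fit; filled points pass the FDR threshold given under each panel. No member passes in neurons, Hdac11 alone passes in glia at -1.36, and Hdac2, Hdac3, Hdac9 and Hdac6 pass in neurons against glia.

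KA was compared with SH in neurons, at the FDR threshold of 0.25 that the study's methods set. None of the 10 members was called, where 0.34% of all genes were called (0.279% higher and 0.0612% lower). None had an unadjusted p below 0.05 in this fit either, compared with 1203 of all 37598 genes (3.2%), and DESeq2 called 0 members, with 0.811% of all genes higher and 0.402% lower. Hdac1 and Hdac11 had an unadjusted p of 0.026 and 0.0283 with the replicate block and of 0.0348 and 0.0323 with separate fits, with FDR values of 0.474 to 0.612. The members' logFC ran from -0.74 to 0.51 with a median of -0.12 (all genes 0.00), 6 below 0 and 4 above.
Within class I, Hdac1 had 45.8, 23.1 and 59.8 CPM in SH neurons and 25.03, 22.0 and 30.1 in KA neurons. SH replicate 2 lay among the KA libraries, and the logFC of -0.74 had a 95% interval of -1.49 to 0.02 (unadjusted p = 0.0549). Hdac2 and Hdac3 had logFC values of -0.28 (SE 0.32) and -0.32 (SE 0.49). Hdac8, an X-linked class I enzyme that acts outside these complexes, had 7.57, 9.48 and 14.04 CPM in SH and 10.4, 15.8 and 14.4 in KA, higher in 3 of 3 pairs with overlapping groups (logFC 0.38, SE 0.36).
Within class IIa, Hdac5 had 112, 151 and 188 CPM in SH neurons and 174, 192 and 275 in KA neurons. KA was the higher library in 3 of 3 pairs, but the groups overlapped and the 95% interval of the logFC of 0.51 ran from -0.40 to 1.41. Hdac4 (85.6 to 163 CPM in SH, 108 to 166 in KA) had a logFC of 0.16 (SE 0.40), Hdac7 (75.0 to 145 CPM in SH, 75.3 to 118 in KA) one of -0.11 (SE 0.44), and Hdac9 one of 0.01 (SE 0.29). Hdac6 had a logFC of -0.12 (SE 0.44). Hdac4 was also higher in KA neurons in 3 of 3 pairs, whereas Hdac1, Hdac2 and Hdac11 were lower in 3 of 3. The share of all genes with 3 of 3 pairs in 1 direction was not determined.
Hdac11 had 49.7, 30.4 and 47.5 CPM in SH neurons and 29.9, 26.2 and 25.8 in KA neurons. All KA libraries lay below all SH libraries, by the small gap between 29.9 and 30.4, and it was the only member of which the groups did not overlap, as was the case for 9.72% of all genes (4.45% with KA lower). The logFC was -0.64 (SE 0.34, 95% interval -1.37 to 0.09, unadjusted p = 0.0813, FDR 1). With the replicate block its FDR was 0.496.

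In glia, 1 of the 10 members, Hdac11, was called and was lower in KA than in SH, where 0.747% of all genes were called, 0.442% higher and 0.306% lower. DESeq2 also called 1 member, with 0.971% of all genes higher and 1.72% lower. The members' median logFC was -0.31, with 7 below 0 and 3 above, and the median of all genes was 0.14.
Hdac11 had 36.0, 27.7 and 46.0 CPM in SH glia and 13.6, 8.99 and 20.2 in KA glia. All KA libraries lay below all SH libraries, and within replicates 1, 2 and 3 the KA level was 0.379, 0.325 and 0.439 of the SH level. These values rest on 448, 568 and 1539 reads in SH and on 157, 235 and 490 reads in KA. The logFC was -1.36 (SE 0.35, 95% interval -2.10 to -0.62, FDR 0.216), so that the KA level was 2.56-fold lower. With the replicate block the logFC was -1.40 (FDR 0.00477), and DESeq2 gave -1.41 (FDR 0.0226). The call was lost with neurons and glia fitted separately, as the study's methods treat them (logFC -1.23, FDR 0.546). It was also lost without a filter on low counts (logFC -1.46, FDR 0.445). The paper's list of changed glial genes does not hold Hdac11. It does report lower Hdac11 mRNA in glia, coinciding with higher methylation at the promoter. That result came from a retest limited to genes with promoter methylation data. Neither that gene set nor the methylation data were used here.
When the libraries were omitted one at a time, 3 of 12 fits kept the call, with logFC values between -1.71 and -1.16. It was lost without SH glia replicate 1 (FDR 0.353), SH glia replicate 3 (0.943), KA glia replicate 1 (1) or KA glia replicate 2 (1), and without any neuron library other than SH neurons replicate 2 (0.252 to 0.371). It was kept without SH neurons replicate 2, SH glia replicate 2 or KA glia replicate 3. Without both low-input libraries the logFC was -1.28 (FDR 1), and with the replicate block and without both it was -1.35 (FDR 0.153).

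Hdac11 lies on chromosome 6 (91156665 to 91174692, plus strand, GRCm38) with 3849 exon bases. Of these, 15.4% overlap exons of Gm44002 and 2.49% those of Gm14573, both on the other strand. Gm44002 had 0 counts in every library and Gm14573 0 to 16, and none of the 50-base words of the Hdac11 exons recurs in the genome. Reads over both Hdac11 and such a gene were left out in counting. These counts therefore do not show whether the shared bases were transcribed from the other strand.

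Marker lists of several cell types also differed between KA and SH glia. The 8 oligodendrocytic markers summed to 25905, 14283 and 29772 CPM in SH glia and to 10775, 7488 and 14034 in KA glia, without overlap (exact two-sided permutation p = 0.1, the smallest possible with 3 against 3). All 8 had a logFC below 0 with a median of -1.11, though none was called, and Mog, which defines the list, went from 388 to 763 CPM in SH to 186 to 313 in KA. The 5 OPC markers summed to 2183, 1757 and 2868 CPM in SH glia and to 1135, 784 and 1564 in KA glia (exact permutation p = 0.1), with 1 called lower. Replicate 2 was the lowest and replicate 3 the highest of both groups for Hdac11 and for both sums, and likewise for Hdac1, Hdac2 and Hdac3. The share of all genes with this order was not determined. The other sums overlapped between the groups, though several differed one way within the replicate pairs. The 10 astrocytic markers summed to 1144 to 2191 CPM in KA and 1796 to 2614 in SH, lower in 3 of 3 pairs (exact permutation p = 0.2). Their logFC ran from -1.76 to 1.94 with a median of -0.80, 7 below 0 and 3 above, and 1 was called lower. The 10 microglial markers summed to 932 to 1859 CPM in KA and 1173 to 2592 in SH, lower in 2 of 3 pairs (exact permutation p = 0.3), with a median logFC of -0.44, 9 of 10 below 0 and 1 called lower. The 15 neuronal markers summed to 686 to 2807 CPM in KA and 1194 to 3136 in SH, lower in 3 of 3 pairs (exact permutation p = 0.5), with a median logFC of -0.45 and none called. The endothelial sum was 41.3 to 91.7 CPM in KA and 18.7 to 62.9 in SH, and the leukocyte sum 80.0 to 117 in KA and 72.6 to 82.2 in SH. Both were higher in 3 of 3 pairs (exact permutation p = 0.3 each), with median logFC values of 0.77 and 0.56 and none called. The pericytic sum was higher in 1 of 3 pairs (exact permutation p = 0.7). In neurons the oligodendrocytic sum was 145 to 703 CPM in KA and 327 to 1280 in SH (exact permutation p = 0.7). Hdac11 had 25.8 to 29.9 CPM in KA neurons and 30.4 to 49.7 in SH neurons. In bulk libraries, fewer cells of a type and less RNA per cell cannot be told apart, and the part of these markers in the Hdac11 result was not tested.

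**Figure D4:**
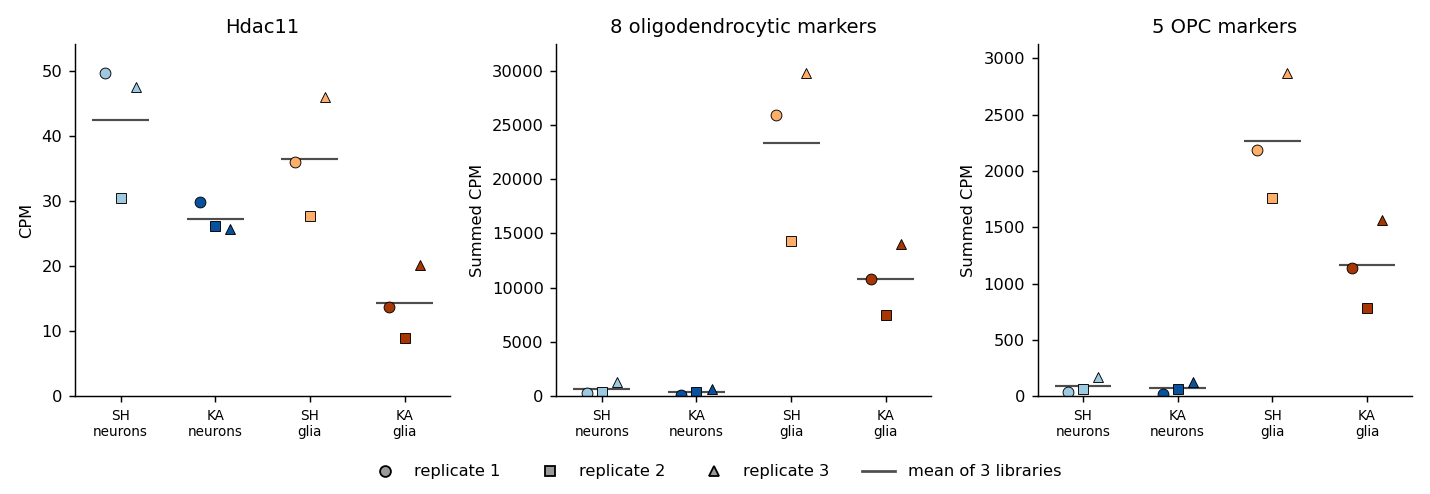
CPM of Hdac11 and summed CPM of the 8 oligodendrocytic and the 5 OPC markers (y axes, linear and from 0) in each library by group (x axes); symbols mark the replicate and lines the mean of 3 libraries. In glia the KA points lie below the SH points in all 3 panels. In neurons Hdac11 is at 25.8 to 49.7 CPM and both marker sums are near the bottom of their axes.

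The genes most like Hdac11 across the 12 libraries, by Pearson's r of log2(CPM + 1) among other protein-coding genes, were Tmem106b (r = 0.966), Tspan7 (r = 0.965) and Igsf8 (r = 0.955). The 12 libraries share pools, depth and cell fraction, so these values are descriptions. The 3 genes had logFC values in glia of -0.92, -1.23 and -1.25 and in neurons of -0.70, -0.60 and -0.79, none past the threshold.

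The other 9 members were not called in glia. Hdac9 had 52.8, 42.3 and 51.7 CPM in SH glia and 33.8, 35.9 and 37.1 in KA glia. It was, beside Hdac11, the only member with no overlap between the groups, as for 6.61% of all genes (3% with KA lower), and its logFC was -0.46 (SE 0.29, FDR 1).
Of class I, Hdac3 was lower in KA glia in 3 of 3 pairs, at 0.465, 0.651 and 0.787 of the SH level, while the groups overlapped (logFC -0.61, SE 0.49, FDR 1). With the replicate block it was called (logFC -0.69, FDR 0.162), which made 2 members lower where 4.17% of all genes were. Hdac2 was at 0.608, 0.690 and 0.972 of the SH level in the 3 pairs (logFC -0.38, SE 0.32). Hdac8 had 11.98, 15.2 and 15.5 CPM in SH glia and 10.3, 7.57 and 12.1 in KA glia, lower in each pair, with the highest KA library just above the lowest SH library (logFC -0.52, SE 0.36). Hdac1 overlapped, with 21.3 to 38.0 CPM in SH and 21.8 to 27.8 in KA (logFC -0.24, SE 0.36).
Of the remaining class IIa and IIb members, Hdac5 had 143, 188 and 233 CPM in SH glia and 161, 121 and 361 in KA glia. The KA libraries lay on both sides of the SH libraries (logFC 0.19, SE 0.43). Hdac4 had 65.4, 94.5 and 104 CPM in SH and 71.8, 76.3 and 167 in KA (logFC 0.26, SE 0.40), and in both genes KA replicate 3 was above all SH libraries. Hdac7 had a logFC of -0.12 (SE 0.44). Hdac6 was higher in 3 of 3 pairs, by 1.24, 1.02 and 1.498 times, with overlapping groups (logFC 0.37, SE 0.44). Of the words of 50 bases in the exons of Hdac1, 37.3% recur elsewhere, among others in its processed pseudogene Gm10093 (168 to 1354 reads per library). Whether this touched the counts, which come from longer reads, was not tested. Hdac4 shares 22.4% of its exon bases with Gm26720 on the other strand, which had 0 counts in every library. Reads over both genes were left out in counting, so this does not show that Gm26720 was silent.

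Whether the KA effect differed between neurons and glia was tested in the same fit. None of the 10 members was called (FDR below 0.25), and neither was any other gene (0% of all genes). None of the members and 502 of all genes had an unadjusted p below 0.05, and DESeq2 called 0 members. The difference in logFC (neurons minus glia) was 0.72 for Hdac11 (SE 0.49, 95% interval -0.31 to 1.75, unadjusted p = 0.16). With the pools as a block the difference was 0.79 (unadjusted p = 0.0334, FDR 0.979). Hdac8 had the difference of smallest p, 0.90 (SE 0.51, unadjusted p = 0.0935), with KA above SH in 3 of 3 pairs in neurons (1.38, 1.66 and 1.02 times) and below it in 3 of 3 pairs in glia (0.856, 0.497 and 0.780 times).

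The mRNA of 81 genes that act with or against the family was examined in 9 lists, and all 81 were tested. In neurons 1 of 81 was called and was higher in KA, the kinase gene Sik1, where 0.34% of all genes were called and 0.279% were higher. Sik1 encodes a salt-inducible kinase that phosphorylates class IIa deacetylases and is itself induced by cAMP signaling. It had 6.78, 8.60 and 19.3 CPM in SH neurons and 41.4, 52.2 and 61.4 in KA neurons. Every KA library was above every SH library, with a logFC of 2.16 (SE 0.45, FDR 0.110), a 4.46-fold higher level. In glia it had 15.0, 15.4 and 12.3 CPM in SH and 13.6, 17.2 and 38.7 in KA, with KA replicate 3 apart from the others. The call in neurons was lost without SH neurons replicate 1 (FDR 0.626) or 2 (0.414) and without KA neurons replicate 2 (0.349) or 3 (0.623), with logFC values of 1.89 to 2.75 over all fits that left out 1 library. Of those 12 fits, 8 kept the call. The FDR of Sik1 was 0.0011 with the replicate block, 0.00142 with DESeq2 and 0.0155 with separate fits. The paper's list of genes higher in KA neurons also holds Sik1.
The other 80 partners did not pass in neurons, where 2 of 81 had an unadjusted p below 0.05 and DESeq2 called 1. The next by p were Rest, the CoREST-recruiting repressor of neuronal genes (5.01 ± 1.21 CPM in SH, 9.61 ± 4.13 in KA, logFC 0.94, SE 0.37, FDR 1), and Prkd1, a protein kinase D that drives class IIa export (34.8 ± 11.3 to 18.6 ± 2.22 CPM, logFC -0.90, SE 0.44). Then came the sirtuin gene Sirt5 (logFC -0.91, SE 0.47), the NuRD methyl-CpG binding gene Mbd2 (0.80, SE 0.42) and the calmodulin-dependent kinase gene Camk1 (0.74, SE 0.40), each with FDR 1. With the replicate block 3 partners were higher (Sik1, Camk1 and Mbd2) and 1 lower (Ywhah, a 14-3-3 gene), where 1.94% of all genes were higher and 1.11% lower.

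In glia 0 of the 81 partners were called, where 0.747% of all genes were, and 5 of 81 had an unadjusted p below 0.05, each lower in KA, compared with 1800 of all 37598 genes (4.79%). DESeq2 called 2. Kat2b, an acetyltransferase gene, had 92.0, 50.1 and 109 CPM in SH glia and 43.5, 30.0 and 46.2 in KA glia. The groups did not overlap (logFC -1.07, SE 0.34, FDR 0.476). Prkd3 (logFC -0.79, SE 0.31), Camk2g (-0.70, SE 0.30), the coactivator gene Ncoa3 (-1.02, SE 0.45), the 14-3-3 gene Ywhaq (-0.79, SE 0.36) and the corepressor gene Rcor2 (-0.75, SE 0.39) followed. The partners' median logFC was -0.24 in glia, 58 of 81 below 0, and -0.11 in neurons, 52 of 81 below 0. With the replicate block 10 partners were lower and 1 higher, where 4.17% of all genes were lower and 3.47% higher. Those lower were Kat2b, Ncoa3, Ywhaq, Ywhah, Prkd3, Camk2g, Camk2b, Rcor2, Sirt2 and Tbl1x, and Sik3 was higher.
By list, the median logFC in glia was -0.08 for NuRD (12 genes), -0.21 for Sin3 (13), -0.27 for CoREST (8), -0.27 for NCoR/SMRT (5), 0.01 for MEF2 (4), -0.33 for the class IIa kinases (14), -0.41 for 14-3-3 (6), -0.29 for the sirtuins (7) and -0.13 for the acetyltransferases (12). In neurons the list medians lay between -0.24 (14-3-3) and 0.07 (class IIa kinases).

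**Figure D5:**
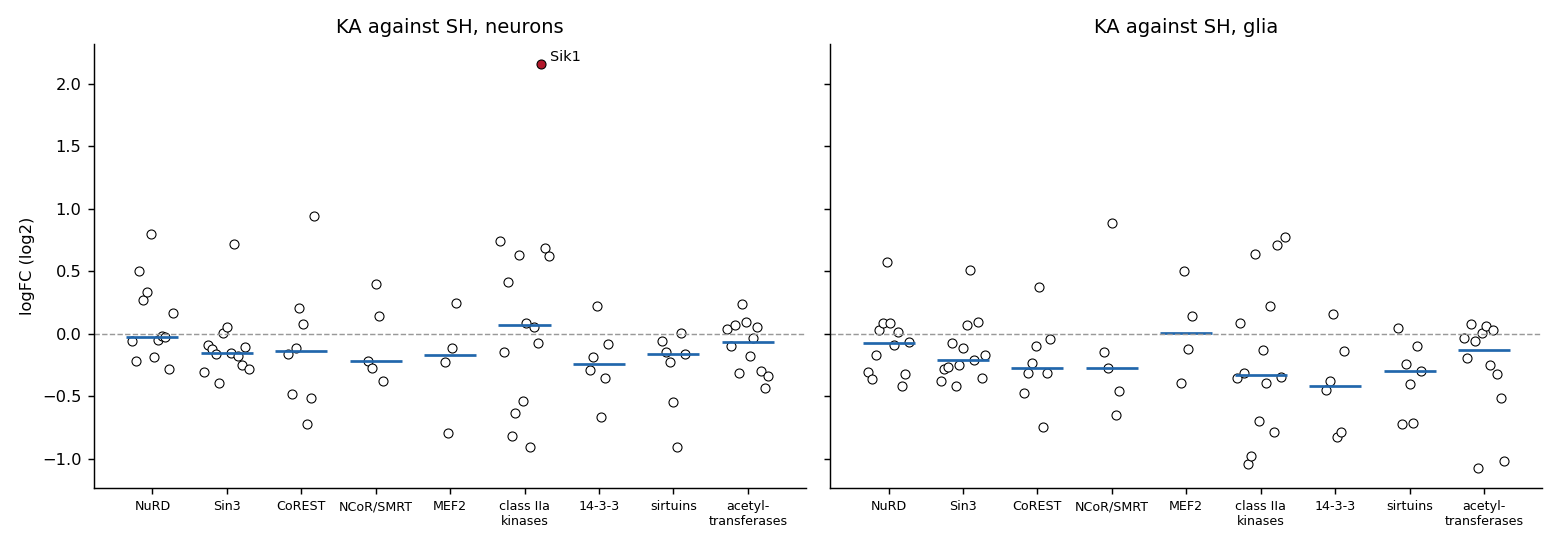
logFC on the log2 scale (y axis) of each of the 81 partner genes for KA against SH in neurons and in glia, by list (x axis); each point is 1 gene, the bar is the median of the list and a filled point has an FDR below 0.25. Sik1 in neurons, at 2.16, is the single filled point, and the list medians lie between -0.41 and 0.07.

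Between the cell fractions, 17 of the 81 partners were higher in neurons and 9 lower (FDR below 0.05), where 11.6% and 6.91% of all genes were. For the complexes in which Hdac1 and Hdac2 act, Chd5 of NuRD was higher in neurons (98.9 ± 16.4 against 27.1 ± 8.69 CPM in SH, logFC 2.20, SE 0.29) and Gatad2a lower (logFC -0.85, SE 0.25). Suds3 of Sin3 was higher (logFC 1.19, SE 0.26), and of CoREST Rcor2 was higher (1.083, SE 0.28) and Rest lower (-1.58, SE 0.26). None of the 5 NCoR/SMRT genes and none of the 4 MEF2 genes was called. Of the genes that move class IIa enzymes, Camk2b was higher in neurons (2431 ± 950 against 352 ± 203 CPM in SH, logFC 2.96, SE 0.47) and Prkd3 lower (10.0 ± 1.07 against 106 ± 15.9 CPM, logFC -3.05, SE 0.24). The 14-3-3 genes Ywhah and Ywhaq went opposite ways (logFC 1.17, SE 0.34, and -1.15, SE 0.26), as did the sirtuin genes Sirt6 (1.58, SE 0.27) and Sirt2 (-1.69, SE 0.33) and the acetyltransferase genes Kat6b (0.81, SE 0.27) and Kat2b (-2.18, SE 0.25).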

How the data were processed

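The mRNAseq libraries were analysed: 12 libraries of NeuN+ and NeuN- nuclei of 3 KA and 3 SH pools. The 12 RRBS samples were not analysed here. The members and lists were chosen with earlier results of these data known. The authors trimmed reads with Trim Galore 0.4.3, aligned them to mm10 with Rsubread and counted uniquely mapped reads with featureCounts defaults (GENCODE M16), which ignore strand and leave out reads over more than 1 gene. The deposited values are whole-number counts per gene without normalization.

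Symbols came from GENCODE M21 (53274 of 53379 genes). With edgeR 4.0.16 in R 4.3.3, filterByExpr defaults (minimum count 10, minimum total 15), TMM and a quasi-likelihood model (glmQLFit, legacy=TRUE) of 4 group means were used on all libraries, with Benjamini-Hochberg adjustment over 37598 genes. The threshold was an FDR of 0.25 for KA against SH and 0.05 for neurons against glia. The SE was derived from logFC and its F statistic. The script was tested on simulated data. Alternatives were DESeq2 1.42.0, edgeR 4, RLE and upper quartile scaling, other filters and gene sets, separate fits (the study's methods treat the cell types separately), a replicate block, and fits without single libraries, low-input libraries or replicate 3.

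Replicate numbers were checked as pairs by correlating, across genes, deviations from group means: 0.449, 0.276 and 0.646 between KA and SH neurons, and 0.516, 0.513 and 0.806 between KA and SH glia, for replicates 1, 2 and 3. Unlike numbers were not correlated, so these values do not show that KA and SH pools of a number are pairs. Neurons and glia of a number come from 1 pool (0.344 to 0.719). Named were all members, partners past FDR 0.25 and up to 6 by p, and, between fractions, per list the largest logFC each way past 0.05, and the 3 genes most correlated with a member called for KA. Partners called with the block and Slc48a1 were named after their values were seen.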

Additional observations from a re-analysis of the deposited data

How the results depend on the processing

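Hdac11 kept its direction in every alternative run. Members lower in KA glia numbered 0 without a filter on low counts, at an FDR below 0.05, with separate fits, without both low-input libraries and without all replicate 3 libraries (Hdac11 FDR 0.445, 0.216, 0.546, 1 and 0.61), 2 with the replicate block, and 0 to 1 when 1 library was left out. Members higher in neurons than glia numbered 1 with RLE scaling, 0 without a filter, 0 without both low-input libraries, 3 with protein-coding genes alone (Hdac9 FDR 0.0617), 3 with autosomal genes alone, where the X-linked Hdac6 was not in the fit, and 0 to 5 when 1 library was left out. Partners higher in KA neurons numbered 3 with the replicate block, 0 at an FDR below 0.05, 5 with the replicate block without both low-input libraries (chosen after seeing the data) and 0 to 1 with 1 library left out, and those lower 1 with the block and 2 with the block without the low-input libraries. Partners higher in KA glia numbered 1 with at least 10 counts in every library, 1 with the block and 3 with the block without the low-input libraries. Those lower numbered 3 with upper quartile scaling, 5 with at least 10 counts, 1 with protein-coding genes alone, 10 with the block, 2 with DESeq2, 2 with the block without the low-input libraries and 0 to 1 with 1 library left out. Beside Hdac3 in glia and Hdac4 and Hdac11 between the cell fractions, the replicate block changed no member's call. Over all genes, 105 were higher and 23 lower in KA neurons and 166 and 115 in KA glia. These counts were 228, 72, 305 and 572 with upper quartile scaling, 730, 417, 1305 and 1566 with the block, 305, 151, 365 and 645 with DESeq2, and 73, 6, 40 and 1 without the low-input libraries. Genes higher in neurons than glia numbered 4367 of 37598, and 3250 with RLE scaling. They numbered 2853 of 51434 without a filter and 2077 of 39577 without the low-input libraries. With protein-coding genes alone they numbered 2841 of 20344, and with autosomal genes alone 4187 of 35684. The cause of these shifts was not tested.

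Values that were not called and changed sign were these. In neurons, KA against SH, Hdac9 was at -0.0092 with RLE scaling, -0.0026 with the replicate block, -0.0087 with DESeq2 and -0.010 with the block without the low-input libraries, and Hdac7 at 0.042 without replicate 3. In glia, Hdac4 was at -0.12 and Hdac5 at -0.24 without replicate 3. The difference between cell types for Hdac4 was 0.011 with upper quartile scaling, 0.020 with the block and 0.39 without replicate 3. In neurons against glia, Hdac8 was at 0.0099 with edgeR 4, Hdac4 at -0.01 and Hdac7 at -0.29 without the low-input libraries, Hdac5 at 0.033 without replicate 3, and Hdac7 at -0.090 with at least 10 counts and -0.060 with protein-coding genes alone. With 1 library left out, logFC in neurons ranged from -0.028 to 0.45 for Hdac4, -0.37 to 0.16 for Hdac6, -0.30 to 0.23 for Hdac7 and -0.12 to 0.17 for Hdac9. In glia it ranged from -0.42 to 0.017 for Hdac1, -0.25 to 0.46 for Hdac4, -0.43 to 0.44 for Hdac5, -0.22 to 0.71 for Hdac6 and -0.61 to 0.40 for Hdac7. The difference ranged from -0.040 to 0.45 for Hdac2, -0.070 to 0.96 for Hdac3, -0.30 to 0.42 for Hdac4, -0.83 to 0.10 for Hdac6 and -0.51 to 0.50 for Hdac7. In neurons against glia it ranged from -0.088 to 0.48 for Hdac1, -0.058 to 0.66 for Hdac4, -0.61 to 0.15 for Hdac5, -0.31 to 0.47 for Hdac7 and -0.44 to 0.10 for Hdac8. With 3 pools a group, effects of the size of most members' SE could not be told from 0.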

Other observations

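The gene Slc48a1, which shares 29 exon bases with Hdac7 on the opposite strand and encodes a haem transporter, was lower in KA glia (logFC -1.60, SE 0.39, FDR 0.163). In neurons its logFC was -0.69 (SE 0.38, FDR 1). The overlap covers 0.429% of the exon bases of Hdac7, whose logFC in glia was -0.12. The pseudogene Gm10093 of Hdac1 had a logFC of -0.78 (SE 0.40) in neurons and -0.44 (SE 0.40) in glia, beside -0.74 and -0.24 for Hdac1, and neither gene was called.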
